A study of Mus musculus with 6 samples.

Results

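In immortalized mouse proximal tubular cells with a knockdown of Glis2, transcripts of glycolysis and of the hypoxia response were more often lower (16 called) than higher (3 called). Of the 33 members above array background, 48.5% were called lower and 9.09% higher, against 22.2% and 21.5% of all genes above background. The set was proposed with results of these arrays in view, so these counts are a description. The lowered transcripts included the aldolase Aldoc, the pyruvate dehydrogenase kinase Pdk1, the angiogenic factor Vegfa and the oxygen-labile transcription factor subunit Hif1a. The set holds 48 genes chosen by symbol: 26 of glycolysis (glucose and lactate transporters, enzymes, lactate dehydrogenases and regulatory kinases) and 22 of hypoxia signalling and its non-glycolytic targets. Of the 48, 45 had a probe, among 19057 genes measured, and the 3 without a probe under their symbol were Hk2, Gpi1 and Eno1. Where a gene had several probes, the brightest on average was used.

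Glycolysis splits glucose into pyruvate in the cytosol, and lactate dehydrogenase and lactate transporters dispose of the product when pyruvate does not enter the mitochondrion. Hypoxia-inducible factor is a dimer of an oxygen-labile alpha subunit (Hif1a or Epas1) and the stable subunit Arnt. Prolyl hydroxylases of the Egln family use oxygen to mark the alpha subunit, and Vhl then directs it to degradation. When oxygen is low the factor accumulates and is known to raise transcription of glucose transporters, glycolytic enzymes, Pdk1 and Vegfa through sites with the core ACGTG or GCGTG. Proximal tubular cells in the kidney are known to rely mostly on oxidative metabolism rather than on glycolysis.

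RNA from 3 control and 3 knockdown samples was hybridised to an Illumina bead array. All cells were immortalized proximal tubular cells of a strain given as C56BL/6 and were infected with lentivirus, the control with anti-GFP shRNA and the knockdown with anti-Glis2 shRNA, and were harvested after 7 days. The labels state neither whether the cells were 1 clone, nor their age or oxygen supply, nor whether the 3 cultures per group were infected separately. The p-values therefore set a difference only against the scatter among these samples, and that scatter may be technical. For each gene, limma combines its own scatter with a value pooled over all genes. The labels do not say how many hairpins were used, and a lower Glis2 level, anything else the hairpin does and a difference between populations cannot be told apart. Nor can fewer cells of a type be told apart from less RNA per cell.

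Glis2, the check of the labels, had intensities of 278, 234 and 229.7 in control and 169, 161 and 176 in knockdown cells, a log2 fold change (knockdown minus control) of -0.55 ± 0.092 (SE; by limma, adjusted p of 6.36e-05), or -1.27 with background subtracted. This is a smaller fall than the study's design text states for the line, from a control level not far above background. Intensities ran from 85.4 to 52227 on all arrays, and the number of arrays limits the precision. A gene was called when limma's Benjamini-Hochberg adjusted p over all 19057 genes was under 0.05, and counted as above background when its mean exceeded 139, the most frequent intensity plus 3 SD. Of 13 proximal tubule markers measured, 3 were above background (Aqp1, Mme and Slc4a4), while Lrp2, Slc34a1 and Slc5a2 were under the limit on all 6 arrays. Aqp1 fell from 9760.0 ± 706 to 365 ± 101 (SD, n = 3), Mme fell at least 6.11-fold to a level under the limit, and Slc4a4 was not called (1145 ± 88.7 and 1121 ± 62.2, a log2 fold change of -0.028). The summed level of the 13 over background, 10774 to 12484 on control and 1331 to 1455 on knockdown arrays, was mostly Aqp1 in control and mostly Slc4a4 in knockdown cells. Of 7 general kidney epithelial markers 2 fell, Cdh16 (-1.41) and Cdh1 (-0.38), and 2 rose, Krt8 (0.57) and Krt18 (0.40); their summed level, 56040.1 to 59504 and 77501 to 79966, is mostly that of the bright keratins. The part of these differences in the results below was not tested. Of 6 endothelial markers, which include the member Kdr, 0 were above background. Of 4 leukocyte markers 1 was (Csf1r, 0.44). Of 7 fibroblast markers 1 was, Dcn, which fell from a mean of 275 to 139, a log2 fold change of -0.98. Of 6 distal nephron markers 2 were, Slc12a3 and Slc12a1, and neither was called. Slc12a3 had mean intensities of 1244 ± 73.4 (control) and 1148 ± 96.4 (knockdown; SD, n = 3 each), while Slc12a1 was near the limit.

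Of the 45 measured members, limma called 16 lower and 3 higher in the knockdown, and 26 were not called. Over all genes 22.5% were called, 11.4% lower and 11.1% higher. Since 33 of the 45 members were above background, the nearer comparison is with the 9507 genes above background, of which 43.7% were called, 22.2% lower and 21.5% higher. All 19 called members were above the limit on each of the 6 arrays, so none of them had passed through 1 group alone. The share of the 33 brighter members that was called, 57.6%, was made up of 48.5% lower and 9.09% higher. The median log2 fold change of the 45 members was -0.15, against 0.0039 over all genes, and 4 called members fell to no more than 50% of control while 0 at least doubled. These members and their grouping were proposed with results of these arrays in view, so the counts are a description.

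Of 23 measured glycolysis members 8 were called lower and 2 higher (median -0.13), and of 22 hypoxia signalling and target members 8 were called lower and 1 higher (median -0.19). The 3 control arrays did not overlap the 3 knockdown arrays in 20 of the 45 members (44.4%), compared with 32.2% of all genes. All 20 were among the 33 members above background (60.6%), compared with 52.7% of genes above background. With the most frequent intensity subtracted from every value, the counts were 9 lower and 1 higher, and all genes called came to 2631. Normexp background correction gave 11 lower and 2 higher.

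**Figure D1:**
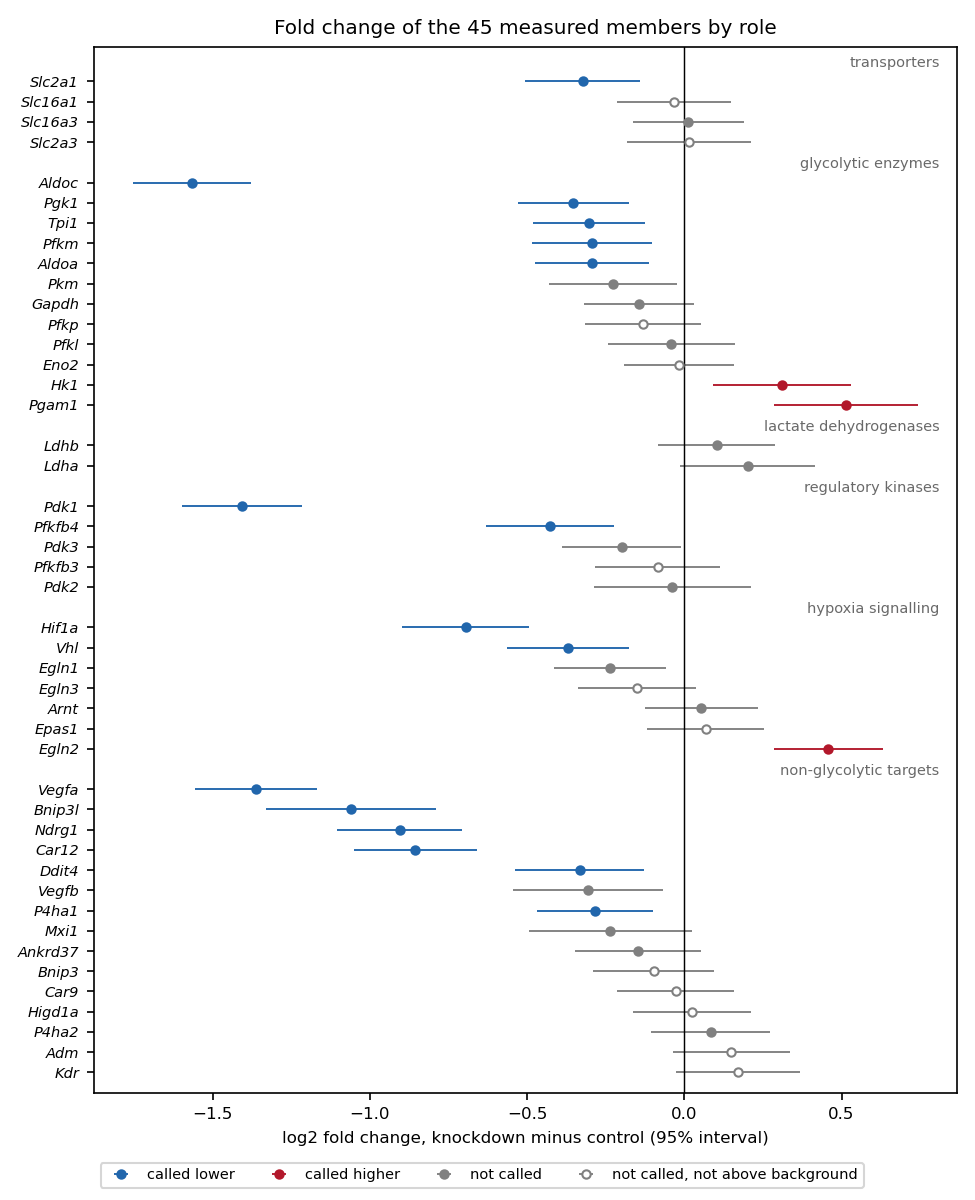
Log2 fold change (knockdown minus control) of the 45 measured members with its 95% interval from limma, n = 3 arrays per group, ordered by role. Blue marks the 16 genes called lower, red the 3 called higher, and open points the genes not above background; Aldoc, Pdk1 and Vegfa lie farthest to the left.

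The promoters of the 6 called members with the largest change that have an entry are shown, several of them of known targets of hypoxia-inducible factor. Among the 6 genes, Pgam1 rose. Bnip3l (-1.06) and Ndrg1 (-0.91) changed more than Car12, Hif1a and Pgam1 but have no entry. Each line gives the 250 bases before the RefSeq start that lies farthest 5′ (GRCm38.p6), read 5′ to 3′ on the gene's strand, with matches to ACGTG or GCGTG on either strand in capitals. They lie at chr11:78322823-78323072 on the plus strand (Aldoc), chr2:71872974-71873223 on the plus strand (Pdk1), chr17:46032378-46032627 on the minus strand (Vegfa), chr9:66713436-66713685 on the plus strand (Car12), chr12:73907617-73907866 on the plus strand (Hif1a) and chr19:41911621-41911870 on the plus strand (Pgam1). On the opposite strand the matches read CACGT and CACGC, and in the palindrome CACGTG, also the E-box of other factors, ACGTG matches on both strands.
Aldoc: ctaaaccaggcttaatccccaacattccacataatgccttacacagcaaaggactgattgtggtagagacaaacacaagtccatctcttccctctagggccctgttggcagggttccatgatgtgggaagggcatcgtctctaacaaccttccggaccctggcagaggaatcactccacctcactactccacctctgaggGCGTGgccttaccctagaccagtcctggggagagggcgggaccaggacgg
Pdk1: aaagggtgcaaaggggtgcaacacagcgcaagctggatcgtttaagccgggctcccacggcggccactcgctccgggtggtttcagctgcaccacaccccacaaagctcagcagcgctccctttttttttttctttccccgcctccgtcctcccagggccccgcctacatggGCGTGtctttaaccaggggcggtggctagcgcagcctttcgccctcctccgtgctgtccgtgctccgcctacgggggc
Vegfa: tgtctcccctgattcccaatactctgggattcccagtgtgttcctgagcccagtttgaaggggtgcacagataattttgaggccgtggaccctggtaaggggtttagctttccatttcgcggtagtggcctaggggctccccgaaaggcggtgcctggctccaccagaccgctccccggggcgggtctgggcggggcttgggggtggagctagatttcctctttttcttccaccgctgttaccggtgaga
Car12: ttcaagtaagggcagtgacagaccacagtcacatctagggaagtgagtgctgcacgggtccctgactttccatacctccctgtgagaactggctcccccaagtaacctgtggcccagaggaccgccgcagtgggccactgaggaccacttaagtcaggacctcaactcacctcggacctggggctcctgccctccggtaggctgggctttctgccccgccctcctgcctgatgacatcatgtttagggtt
Hif1a: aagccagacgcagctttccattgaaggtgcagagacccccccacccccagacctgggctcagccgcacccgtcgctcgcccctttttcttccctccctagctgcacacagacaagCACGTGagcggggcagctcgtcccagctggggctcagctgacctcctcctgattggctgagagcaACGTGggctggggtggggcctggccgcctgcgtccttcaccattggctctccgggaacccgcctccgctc
Pgam1: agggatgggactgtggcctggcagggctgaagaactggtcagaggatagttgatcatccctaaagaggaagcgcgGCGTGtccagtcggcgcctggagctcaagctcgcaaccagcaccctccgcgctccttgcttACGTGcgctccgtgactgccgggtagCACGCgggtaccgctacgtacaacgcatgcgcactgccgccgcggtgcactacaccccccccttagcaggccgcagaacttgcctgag

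Aldoc and Pdk1, which fell most, held 1 match each, both GCGTG on the gene's strand, with the first base 50 and 78 bases before the start. Vegfa and Car12, which also fell, held 0 in this window. Hif1a held 3 matches, of which 2 are the strands of 1 palindrome, and Pgam1, which rose, held 3. Of the 44 members in the promoter table, 34 held at least 1 match (77.3%), compared with 38.6% of the table's 27025 genes and 58.3% of the 7763 genes above background that the table holds. Among called members the motif was present in 9 of 14 that fell and 2 of 3 that rose, and among members measured and not called in 21 of 24. The letters occurred in members that fell, in members that rose and in members not called. A match is a description of letters, not a bound site.

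Among the transporters, Slc2a1, the widely expressed glucose transporter GLUT1, was the only 1 of 4 called (25%, against 22.5% of all genes). Its intensities were 3465, 3263 and 3019 on the control arrays and 2444, 2657 and 2686 on the knockdown arrays. All 3 knockdown values lay below all 3 control values, and the log2 fold change was -0.32 ± 0.088 (SE; by limma, adjusted p of 0.00825). Each call was repeated under 15 alternatives: a replicate block, quantile normalization, background subtracted, normexp correction, 50 added, the mean of a gene's probes, brighter probes only, another variance model, values relative to 50 neighbouring genes, and each array left out. For Slc2a1 the adjusted p by limma ran from 0.00446 to 0.0550, and the call was lost without control replicate 1 (0.0550) and with background subtracted (0.0530). The high-affinity glucose transporter Slc2a3 and the lactate transporter Slc16a1 were under the background limit on all 6 arrays, and Slc16a3, the lactate exporter MCT4, had means of 138 ± 6.45 and 139.7 ± 4.89 (SD, n = 3), at the limit. None of these 3 was called, and their probes were too dim for a change to be read.

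The enzymes of the pathway moved in both directions, with 5 of 12 measured genes called lower, 2 higher and 5 not called. This is 58.3% called, against 22.5% of all genes, and 70% of the 10 above background, against 43.7%. Aldoc encodes aldolase C, an isozyme that cleaves fructose bisphosphate and is best known from brain. It had intensities of 1864, 1871 and 2119 on the control arrays and 678, 604 and 697 on the knockdown arrays. The groups were far apart relative to their spread, and the mean fell by 66.2%, a log2 fold change of -1.56 ± 0.091 (SE; by limma, adjusted p of 3.29e-12). The other probe of Aldoc was under the background limit, and averaging both gave -0.84, still called. Aldoa, the ubiquitous aldolase, had 9349.6, 8905 and 10309 on the control arrays and 7869, 7472 and 7921 on the knockdown arrays. Its groups did not overlap either, with a smaller change of -0.29 ± 0.088 (SE) and limma's adjusted p = 0.0157. The 95% intervals were -0.48 to -0.11 for Aldoa and -1.75 to -1.38 for Aldoc; the difference between the 2 genes was not tested.

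Tpi1, Pgk1 and Pfkm fell as well. Tpi1, the triose phosphate isomerase, had 21667, 20078 and 22674 in control and 17514, 17465 and 17151 in knockdown cells. Pgk1, phosphoglycerate kinase, an enzyme that makes ATP, had 12429, 13685 and 13252 in control and 9951, 10233 and 10628 in knockdown cells. Pfkm, the muscle-type phosphofructokinase of the committed step, had 2094, 1783 and 1839 in control and 1427, 1589.8 and 1639.7 in knockdown cells. In each of them every knockdown array lay below every control array. Their log2 fold changes were -0.30 ± 0.086, -0.35 ± 0.086 and -0.29 ± 0.092 (SE), with limma's adjusted p = 0.0106, 0.00304 and 0.0209. A second bright probe of Tpi1 gave -0.30, close to the -0.30 of the probe used, and a dimmer probe, not called, -0.11. The 2 further probes of Pfkm, both above background, gave -0.090 and -0.036 and were not called.

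These calls did not hold under every alternative. Limma's adjusted p of Aldoa ran from 0.000220 to 0.0877 over the 15 alternatives, and it was over 0.05 without control replicate 3 (0.0877), without knockdown replicate 2 (0.0679), with background subtracted (0.0577) and with normexp (0.0736). That of Pfkm ran from 2.36e-06 to 0.270 and was over 0.05 without control replicate 1 (0.140), without knockdown replicate 1 (0.120), with background subtracted (0.128), with normexp (0.0783) and with the mean of its probes (0.270). Tpi1 ran from 0.00266 to 0.0703 and lost its call without control replicate 3 (0.0516), with normexp (0.0597) and relative to 50 neighbouring genes (0.0703). Pgk1, on the X chromosome, ran from 0.000820 to 0.126 and lost it relative to its neighbours (0.0644) and with the mean of its 3 probes (0.126), of which the other 2 were near or under the background limit.

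Pgam1 and Hk1 rose against the direction of the other called enzymes. Pgam1, a phosphoglycerate mutase of lower glycolysis, had 1443, 1547 and 1793 on the control arrays and 2724, 2216 and 1930.3 on the knockdown arrays. The knockdown arrays all lay above the control arrays but were spread more widely, and the log2 fold change was 0.51 ± 0.11 (SE; by limma, adjusted p of 0.000946). The second Pgam1 probe also rose, from 537 ± 95.9 to 686 ± 91.4 (SD, n = 3), a log2 fold change of 0.36. With background subtracted the adjusted p by limma was 0.143, the highest of 0.000240 to 0.143 over the alternatives. Hk1, the hexokinase that traps glucose in most tissues, had mean intensities of 376 ± 66.2 (control) and 462 ± 26.8 (knockdown; SD, n = 3 each). One control array exceeded the lowest knockdown array, so the groups overlapped, and the change of 0.31 ± 0.11 (SE) had limma's adjusted p = 0.0360. A further Hk1 probe above background gave -0.11 and was not called. Hk1 kept its call under 6 of 15 alternatives, with limma's adjusted p from 0.00302 to 0.440. It lost it without control replicate 1 (0.0878), control replicate 2 (0.290), knockdown replicate 1 (0.102) or knockdown replicate 3 (0.124), with 50 added (0.0616), with background subtracted (0.350), with normexp (0.0791), with the mean of its probes (0.386) and relative to neighbours (0.440).

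Gapdh, Pkm and Pfkl, also bright, were not called. Gapdh, the dehydrogenase often used as a reference gene, had mean intensities of 21660.4 ± 532 (control) and 19601 ± 456 (knockdown; SD, n = 3 each). Its groups did not overlap, but the log2 fold change was -0.14 with a 95% interval of -0.32 to 0.030 (limma's adjusted p = 0.286). It was called with background subtracted (0.0390), the lowest adjusted p by limma of 0.0390 to 0.481 over the alternatives. Pkm, the pyruvate kinase that ends the pathway, had mean intensities of 18496 ± 377 (control) and 15925 ± 2335 (knockdown; SD, n = 3 each). Knockdown replicate 3 lay among the control values, and without it limma's adjusted p fell from 0.116 to 0.0216 in a range of 0.0216 to 0.539. Pfkl, the liver-type phosphofructokinase, had a log2 fold change of -0.041 with an interval of -0.24 to 0.16. Pfkp, the platelet-type enzyme, and the neuronal enolase Eno2 were not above background.

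The lactate dehydrogenases were not called. Ldha, the subunit that favours lactate formation and a known hypoxia target, had mean intensities of 11716 ± 1540.4 (control) and 13447 ± 1456 (knockdown; SD, n = 3 each). The groups overlapped, and the log2 fold change of 0.20 had a 95% interval of -0.012 to 0.42, which leaves out a fall of the size seen in Tpi1. Ldhb, at means of 139 ± 10.5 and 149 ± 8.99 (SD, n = 3), was close to the background limit.

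Of the 5 kinases that regulate the pathway, 2 fell and 3 were not called (40% called, against 22.5% of all genes). Of the 4 above background 50% were called, near the 43.7% of all genes above background. Pdk1 encodes a kinase that inhibits pyruvate dehydrogenase and so the oxidation of pyruvate in the mitochondrion. It had 639, 535 and 615 on the control arrays and 208, 232 and 234 on the knockdown arrays. Every knockdown array was under every control array by a wide margin, and the mean fell by 62.3%, a log2 fold change of -1.41 ± 0.092 (SE; by limma, adjusted p of 3.02e-11). The log2 fold change was -2.13 once the most frequent intensity was subtracted, and it was -0.76 when averaged with its other probe, which was under the limit. Pfkfb4, which sets the level of the phosphofructokinase activator fructose 2,6-bisphosphate, had 883, 888 and 851 on the control arrays and 570.4, 632 and 763 on the knockdown arrays. The control arrays were tight and the knockdown arrays spread below them, with a log2 fold change of -0.43 ± 0.098 (SE) and limma's adjusted p = 0.00192. Limma's adjusted p for Pfkfb4 ran from 0.000248 to 0.111 over the alternatives, and the call was lost with background subtracted (0.111) and with the mean of its 2 probes (0.0534).

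Other members of both kinase families were not called. Pdk3, another pyruvate dehydrogenase kinase, had mean intensities of 972 ± 98.9 (control) and 844 ± 27.4 (knockdown; SD, n = 3 each). Control replicate 1 lay among the knockdown arrays, and limma's adjusted p was 0.143 with it and 0.0402 without it, within 0.0402 to 0.434 over the alternatives. Pdk2 and Pfkfb3 were at the background limit, with means of 146 ± 2.63 and 145 ± 38.3 for Pdk2 (SD, n = 3), while Pfkfb3 had a log2 fold change of -0.085 (-0.28 to 0.11, 95% interval).

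**Figure D2:**
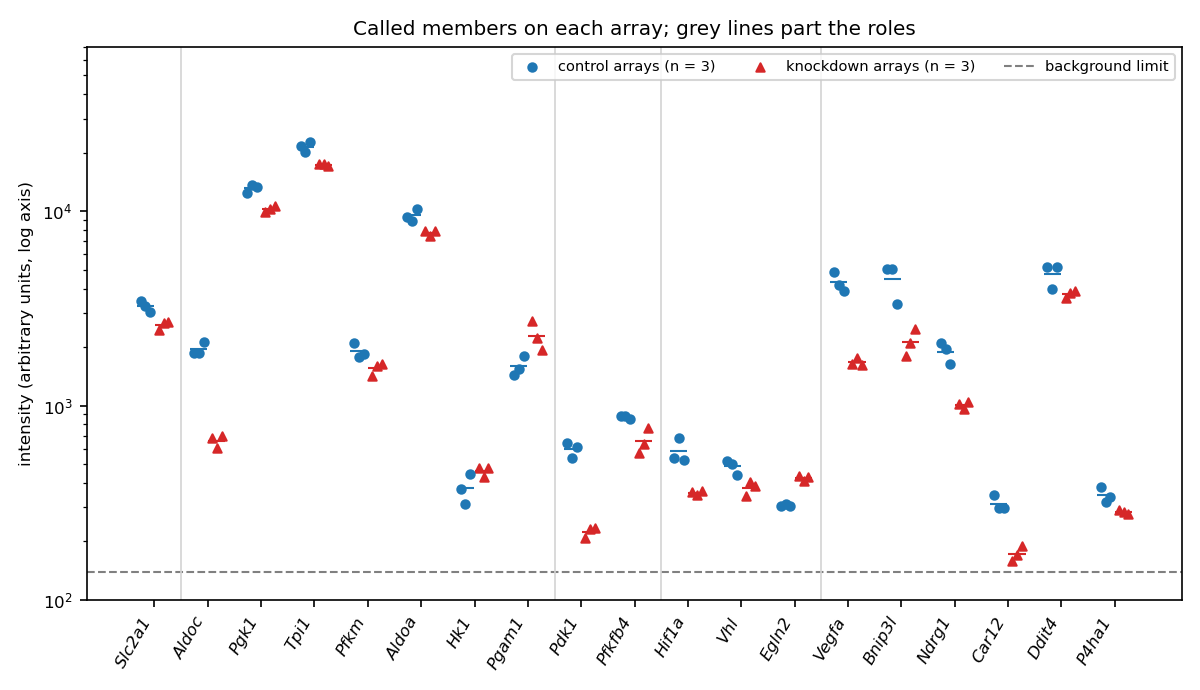
Intensity (arbitrary units, log axis) of the 19 called members on each array, with 3 control arrays as blue circles, 3 knockdown arrays as red triangles and the group means as lines, grouped by role. Levels of different genes come from different probes and are not comparable. The groups are apart for all genes shown except Hk1, and for 4140 of all 4290 called genes.

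In hypoxia signalling, the alpha subunit Hif1a and its ubiquitin ligase subunit Vhl fell while the prolyl hydroxylase Egln2 rose, 3 called of 7. This is 42.9%, against 22.5% of all genes, and 60% of the 5 above background, against 43.7%. Hif1a had 539, 682 and 522 on the control arrays and 357, 347 and 364 on the knockdown arrays. The knockdown arrays were close together and all under the control arrays, of which replicate 2 was the highest. The log2 fold change was -0.70 ± 0.098 (SE; by limma, adjusted p of 6.40e-06). The other 2 probes of Hif1a were under the background limit, and the mean of the 3 gave -0.21, still called. Hif1a protein is regulated mostly by degradation, which these arrays do not measure.

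Vhl had 519, 503 and 439 on the control arrays and 342, 404 and 385 on the knockdown arrays. The groups did not overlap, with a log2 fold change of -0.37 ± 0.094 (SE) and limma's adjusted p = 0.00456; with background subtracted it was 0.0983, the highest of 0.00216 to 0.0983 over the alternatives. Egln2 had 306, 311 and 306 on the control arrays and 432, 409 and 427 on the knockdown arrays. The 3 control arrays were within a narrow range and every knockdown array lay above them, with a log2 fold change of 0.46 ± 0.084 (SE) and limma's adjusted p = 0.000172. Egln1, the hydroxylase held to be the main oxygen sensor, had mean intensities of 215 ± 11.0 (control) and 183 ± 7.75 (knockdown; SD, n = 3 each). Its groups did not overlap either, but limma's adjusted p = 0.0518 missed the threshold with a log2 fold change of -0.24 (-0.42 to -0.058, 95% interval). Egln1 was called without control replicate 2 (0.0441), with 50 added (0.0475), among probes above the median (0.0485) and relative to neighbours (0.0360), within 0.0360 to 0.418 over the alternatives by limma. Its 2 other probes gave 0.045 and -0.095.

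Arnt, the stable partner subunit, had mean intensities of 762 ± 52.0 (control) and 790.2 ± 18.4 (knockdown; SD, n = 3 each). The groups overlapped and the log2 fold change of 0.054 had an interval of -0.13 to 0.23. Epas1, the HIF-2 alpha subunit known from interstitial and endothelial cells of the kidney, and the hypoxia-induced hydroxylase Egln3 were under the background limit on all 6 arrays.

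Of the 15 non-glycolytic targets, 6 fell, 0 rose and 9 were not called, 5 of them not above background. This is 40% called, against 22.5% of all genes. Of the 10 above background 60% were called, all lower, against 43.7% of all genes above background (22.2% lower). By limma 0 of the 15 rose, and 0 had an unadjusted p under 0.05 for a higher value; the most positive log2 fold change was that of Kdr, 0.17 (-0.027 to 0.37, 95% interval). Vegfa, the endothelial growth factor that tubular cells secrete, had 4869, 4164 and 3907 on the control arrays and 1636, 1759 and 1622 on the knockdown arrays. The knockdown arrays were all well under the control arrays. The mean fell by 61.2%, a log2 fold change of -1.36 ± 0.094 (SE; by limma, adjusted p of 6.81e-11). A second bright probe went from 1069 ± 111 to 458 ± 30.2 (SD, n = 3), a log2 fold change of -1.22, and the remaining probe was under the background limit, so that the mean of the 3 gave -0.83. Vegfb, a related factor that hypoxia is not known to induce, had mean intensities of 4587 ± 479.8 (control) and 3744 ± 714 (knockdown; SD, n = 3 each). Its groups overlapped through knockdown replicate 2, with a log2 fold change of -0.31 and limma's adjusted p = 0.0610. Vegfb was called under 7 of 15 alternatives, among them without control replicate 1 (0.0495), without knockdown replicate 2 (0.0199) and without knockdown replicate 3 (0.0494), in a range of 4.22e-05 to 0.472 by limma.

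Bnip3l, a mitophagy receptor of the outer mitochondrial membrane, had 5017, 5046 and 3327 on the control arrays and 1793, 2101 and 2468 on the knockdown arrays. Control replicate 3 was lower than the other controls but above all knockdown arrays. The log2 fold change was -1.06 ± 0.13 (SE; by limma, adjusted p of 9.99e-07), and once background was subtracted it was -1.10 with an adjusted p by limma of 0.0548, the highest of 1.35e-09 to 0.0548 over the alternatives. Its paralog Bnip3 was under the background limit on all 6 arrays. Ndrg1, a stress-responsive protein induced by low oxygen, had 2093, 1959.6 and 1635 on the control arrays and 1015, 959.6 and 1047 on the knockdown arrays. Both of its probes were bright and fell, with -0.91 ± 0.096 (SE; by limma, adjusted p of 9.41e-08) on the probe used and -1.05 on the other.

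Car12, a membrane carbonic anhydrase, had 347, 297 and 296 on the control arrays and 159, 171 and 189 on the knockdown arrays. The knockdown arrays approached the background limit, and the log2 fold change was -0.86 ± 0.094 (SE; by limma, adjusted p of 1.74e-07), or -1.77 with background subtracted. Car9, the carbonic anhydrase most used as a hypoxia marker, was under the limit on all 6 arrays, and its 2 other probes were not above background either. Ddit4, an inhibitor of mTOR signalling, had 5170.3, 3989.7 and 5145 on the control arrays and 3583, 3809.5 and 3888 on the knockdown arrays. The groups were apart by little, since control replicate 2 was close to the knockdown arrays, and the change was -0.33 ± 0.099 (SE; by limma, adjusted p of 0.0153). P4ha1, a collagen prolyl hydroxylase subunit, had 379, 318 and 340.5 on the control arrays and 290.2, 283 and 277 on the knockdown arrays. Its groups were apart as well, with a log2 fold change of -0.28 ± 0.089 (SE) and limma's adjusted p = 0.0215, and its second probe gave -0.45.

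The calls of Ddit4 and P4ha1 were lost without some single arrays. For Ddit4 limma's adjusted p ran from 8.47e-05 to 0.201 over the alternatives, with 0.100 without control replicate 1, 0.0878 without control replicate 3, 0.0643 without knockdown replicate 1, 0.201 with background subtracted and 0.0616 with normexp. For P4ha1 it ran from 3.98e-05 to 0.144, with 0.144 without control replicate 1, 0.0581 without knockdown replicate 2, 0.0721 without knockdown replicate 3, 0.0762 with background subtracted and 0.0503 with normexp. P4ha2, the other collagen hydroxylase subunit listed, was not called, at 0.084 (-0.10 to 0.27, 95% interval). Mxi1, a Myc antagonist, had mean intensities of 412 ± 83.3 (control) and 349 ± 61.8 (knockdown; SD, n = 3 each). Its groups overlapped, with limma's adjusted p = 0.226, and 0.0325 and 0.0395 without control or knockdown replicate 3, within 0.00119 to 0.755. Ankrd37 had -0.15 (-0.35 to 0.055). The vasodilator peptide Adm, the VEGF receptor Kdr and the mitochondrial protein Higd1a were not above background.

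**Figure D3:**
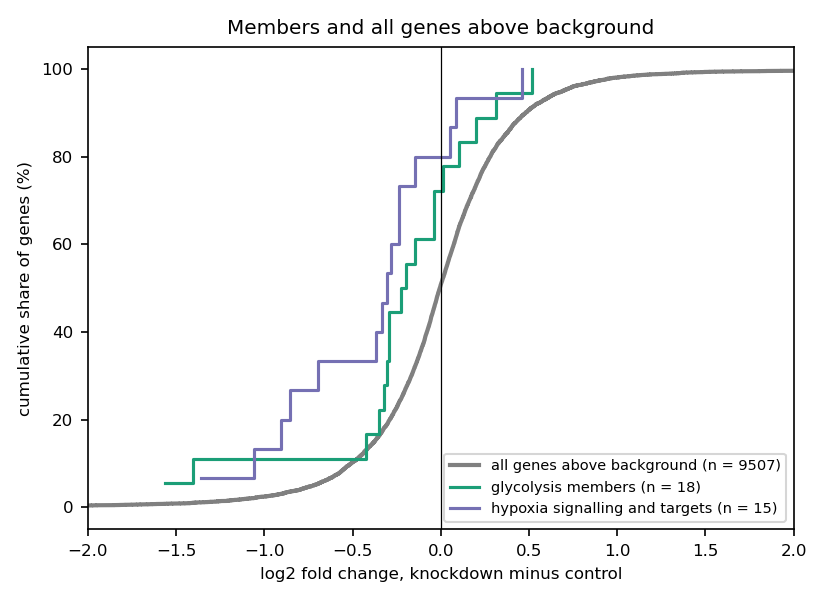
Cumulative share (%) of genes by log2 fold change (knockdown minus control) for the 9507 genes above background, the 18 glycolysis members and the 15 hypoxia signalling and target members above background; the axis is cut at -2 and 2. Both member curves lie to the left of the grey curve over most of the range, and 25 of the 33 members have a value below 0.

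Further probes of the members were called in part. Of 39 further probes, 17 were above background. Of the 19 called members 13 had at least 1 further probe, and in 6 of those a further probe was called in the same direction by limma over all probes: Tpi1, Pgam1, Vegfa, Ndrg1, Car12 and P4ha1. The further Car12 probe was not above background, which leaves 5 such members. The other 12 of the 18 further probes of called members, and the 21 further probes of members not called, were not called. The other 6 called members, Slc2a1, Aldoa, Egln2, Vhl, Bnip3l and Ddit4, rest on 1 probe.

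Other genes of the pathways, 91 measured of 99 listed, were called lower in 16 cases and higher in 11 by limma (29.7% of them, against 22.5% of all genes; of the 56 above background 46.4%, against 43.7%), or 14 in all with background subtracted. Of 9 genes of pyruvate entry to mitochondria and its oxidation there, 2 fell and 1 rose (33.3% called, and 42.9% of the 7 above background). Pdp1, the phosphatase that opposes the Pdk kinases, fell from 342 ± 33.6 to 210.2 ± 22.8 (SD, n = 3), a log2 fold change of -0.70 (limma's adjusted p = 5.65e-06). Pdk4, a further kinase of the family of Pdk1, rose from 157 ± 11.3 to 210.3 ± 9.19, a change of 0.43 (limma's adjusted p = 0.000652). Pdhb, a subunit of pyruvate dehydrogenase itself, fell by 0.32 on the log2 scale (limma's adjusted p = 0.00944, ranging over the alternatives from 0.00300 to 0.0752, with 0.0721 without control replicate 3). Of the pyruvate dehydrogenase kinases, Pdk1 was lower, Pdk4 was higher and Pdk2 and Pdk3 were not called.

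Among 15 measured genes of the pentose phosphate and glycogen pathways, 5 fell and 2 rose (46.7% called, against 22.5% of all genes). Of the 12 above background 58.3% were called, against 43.7% of all genes above background. Rpia, which isomerises ribose phosphate, fell from 2854 ± 81.4 to 1188 ± 20.6 (SD, n = 3), a log2 fold change of -1.26, H6pd, the hexose phosphate dehydrogenase of the endoplasmic reticulum, had -0.65, and Rpe, the epimerase of the same branch, had 0.55, with limma's adjusted p = 3.64e-11, 4.10e-06 and 2.33e-05. Of 24 other genes of glycolysis, glucose transport and gluconeogenesis, 2 fell and 1 rose (12.5% called, against 22.5% of all genes). Of the 7 above background 42.9% were called, near the 43.7% of all such genes. The transporter Slc2a8 had -0.43, the glucose phosphatase subunit G6pc3 0.39 and Pfkfb2, of the family of Pfkfb4, -0.33, with limma's adjusted p = 0.000946, 0.00171 and 0.0201. Slc2a8 and G6pc3 had 0.0580 and 0.454 with the mean of their probes, the former with a range of 0.000850 to 0.0591 and the latter of 0.000788 to 0.454 over the alternatives by limma. Pfkfb2 had 0.160 without control replicate 1 and 0.162 without knockdown replicate 2, within 0.00821 to 0.270.

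Of 15 other regulators of hypoxia signalling, such as coactivators and the subunits of the Vhl ligase complex, limma called 0 lower and 2 higher. The share called was 13.3%, against 22.5% of all genes, and 15.4% of the 13 above background, against 43.7%. At an unadjusted p by limma under 0.05, 1 was lower, Cul2 at -0.24, and the same 2 were higher. Those were Ube2s, a ubiquitin-conjugating enzyme, at 0.33, and Arntl, the circadian relative of Arnt, at 0.24 (limma's adjusted p = 0.0123 and 0.0418). Ube2s had 0.0835 without control replicate 2 and 0.110 without knockdown replicate 2, within 0.00290 to 0.147. Arntl lost its call when any 1 array was left out, at 0.0612 to 0.150, within 0.0133 to 0.640 by limma.

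Other hypoxia targets moved in both directions, with 7 of 28 called lower and 5 higher (42.9% called, against 22.5% of all genes). Of the 17 above background 7 were called lower (41.2%, against 22.2% of all such genes) and 4 higher (23.5%, against 21.5%). The remaining call was Epo, under the limit on all 3 control arrays and named here after its values were seen. The transferrin receptor Tfrc rose from 998 ± 192 to 2871 ± 247 (SD, n = 3) with a log2 fold change of 1.54, and Insig2, which restrains sterol synthesis, had -1.06 (limma's adjusted p = 1.60e-10 and 2.34e-09). The lipase inhibitor Angptl4 was called higher, at 138 ± 6.43 and 264 ± 3.67 (limma's adjusted p = 7.36e-09), but only 1 of 3 control arrays was above the background limit, and its log2 fold change ran from 0.48 to 2.68 over the alternatives. The difference between this list and the 15 targets above was not tested.

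**Figure D4:**
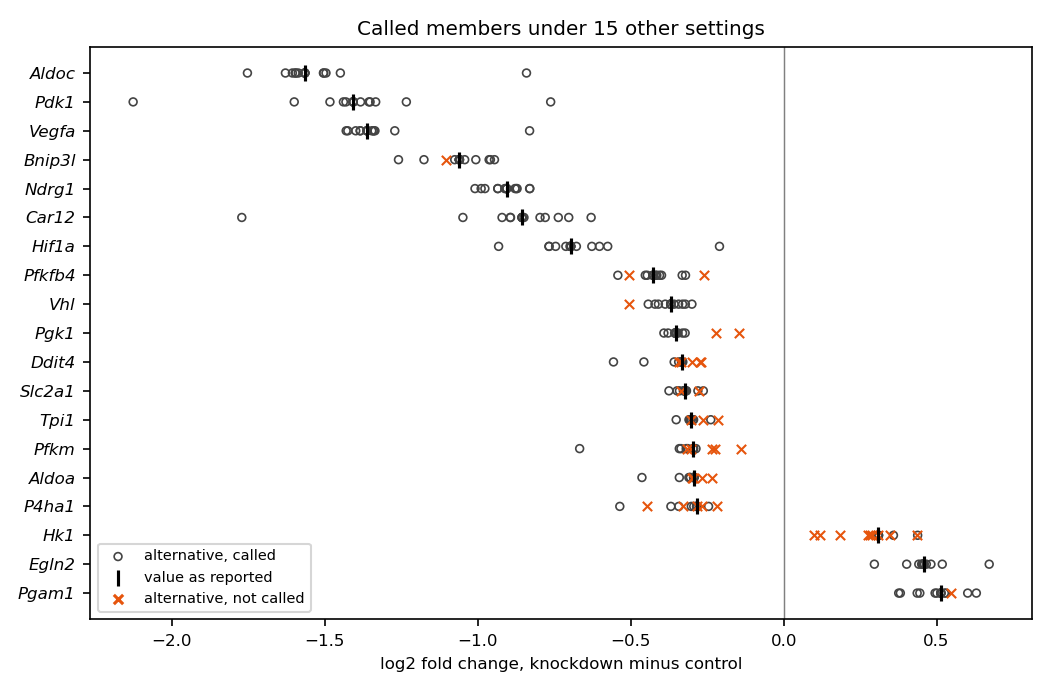
Log2 fold change (knockdown minus control) of the 19 called members as reported (black bar) and under 15 other settings of the analysis, open circles where limma still called the gene and orange crosses where it did not. Of the 19, 7 kept their call under every setting, and all 19 kept their sign.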

How the data were processed

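Total RNA of 3 control and 3 knockdown samples was hybridised with Cy3 label to an Illumina array, per the labels. Values are linear intensities as deposited; neither software nor scaling is given in the sources used here. All 6 arrays had the same distribution and background had not been subtracted. Of 45281 probes, 34885 had 1 gene symbol in GEO's platform annotation, 18 several and 10378 none; 34807 matched the RefSeq table of GRCm38.p6 by Entrez identifier and 0 symbols changed.

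Values were floored at 16 (0 values altered) and log2-transformed, 1 probe per gene, and tested with lmFit and eBayes of limma 3.58.1 in R 4.3.3 over 19057 genes, unblocked. Deviations from the group means correlated at r = -0.096, -0.0401 and -0.0405 between same-numbered arrays, over 9507 genes above background. Between arrays of different number r was -0.019 to 0.066. With 3 arrays per group these values cannot show whether the samples were paired. On simulated data for this comparison with 19057 genes, limma found 4% of the genes given a log2 change of 0.25, 64% at 0.5, 96% at 1 and 100% at 2. In the simulation 50 genes were changed at each size, while 22.5% of all genes were called in the data. The adjusted p depends on how many genes change, so these shares do not give the power in the data.

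The members and lists were chosen with earlier results of these data known. Values on every array are given for called members whose groups do not overlap, and means for other members. Of the other pathway lists up to 3 called genes each, by smallest p, are named. Ranking a gene's probes by mean log2 intensity and taking the most frequent intensity on the log2 scale were settled after the data were seen, following an earlier analysis of these arrays. The neighbour alternative was corrected once after its first result, which had used neighbours' raw levels. Alternatives were a replicate block, quantile normalization, background subtraction, normexp with offset 50, 50 added, the mean of a gene's probes, probes above the median, eBayes with trend and robust, values relative to 50 neighbours (each centred on its own mean) and leaving out each array.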

Additional observations from a re-analysis of the deposited data

How the results depend on the processing

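Of the 19 called members, 7 kept their call under all 15 alternatives: Aldoc, Pdk1, Vegfa, Ndrg1, Car12, Hif1a and Egln2. Quantile normalization could hardly move a call, since the 6 arrays already had the same distribution. It left 4289 of all genes called, against 4290 as reported. All 19 kept their sign, and 10 members not called were called under at least 1 alternative; changes of sign among members not called under either setting were not counted. With background subtracted, members called were 9 lower and 1 higher (glycolysis 5 and 0, hypoxia signalling and targets 4 lower), all genes called 2631 and other pathway genes 14. Normexp and the mean of all probes each left 5 glycolysis members lower and 1 higher, and adding 50 left 1 higher. Values relative to neighbours raised the counts to 20 members lower and 3 higher (hypoxia 12 lower), with 5469 of all genes called, and probes above the median gave 18 lower (hypoxia 10) and 3 higher. Leaving out each array in turn gave 14 to 18 members lower and 2 to 3 higher, of which glycolysis 6 to 9 and 1 to 2 and hypoxia 7 to 9 and 1, with 3751 to 3994 genes and 18 to 24 other pathway genes called. With the replicate number as a block, 17 members were lower and 3 higher (glycolysis 8 and 2, hypoxia 9 and 1), and 4119 genes and 25 other pathway genes were called; the block called Vegfb and lost Arntl. Members at or under the background limit give no measurable change, and the cause of lost calls was not tested.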

Other observations

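Several members lie among neighbours that differed between the groups. Relative to the median of the 50 nearest genes above background, Vegfb on chromosome 19 had a log2 fold change of -0.65, where its neighbours had a median of 0.32, and limma's adjusted p = 4.22e-05. Mxi1 on the same chromosome had -0.53 (limma's adjusted p = 0.00119), and Pfkl on chromosome 10 had -0.37 against neighbours at 0.30 (limma's adjusted p = 0.00452). Hk1, also on chromosome 10, had 0.12 on this scale, with neighbours at 0.20 (limma's adjusted p = 0.440). Ddit4 and P4ha1, on that chromosome too, had -0.56 and -0.54. Pfkm on chromosome 15 fell against neighbours at 0.37, and its change was -0.67 relative to them. Pgam1 on chromosome 19 and Egln2 on chromosome 7 had 0.38 and 0.30 on this scale, with neighbours at 0.15 and 0.19. Both were still called (limma's adjusted p = 0.00888 and 0.0130). Aldoa, also on chromosome 7, had -0.46 with neighbours at 0.15. This alternative removes part of any change that a gene shares with its neighbours, and no cause was tested.

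Eno1 had no probe under its symbol, but its near-identical copy Eno1b had 1, picked out after its values were seen, and the probe may not tell the 2 apart. Its intensities were 981, 843 and 861 in control and 1049, 1163 and 1215 in knockdown cells. The knockdown arrays lay above the control arrays, with a log2 fold change of 0.35 ± 0.092 (SE) and limma's adjusted p = 0.00548, the direction of Pgam1.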
